A study of Mus musculus with 2 samples.

Results

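Repeat-derived small RNAs were the distinct sequences of 24 to 37 nt that matched GENCODE M21 transcripts of more than 20 genes on 1 strand, exactly and over their whole length, and matched no microRNA or structural RNA gene on either strand. There were 22764 such sequences among the 22794309 distinct sequences of both libraries, or among the 18865804 of 24 to 37 nt that matched neither kind of excluded RNA. The Tdrkh-/- library held 15768 of them, the Tdrkh+/- library 14620, and 7624 were found in both. No read count entered the choice.

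The 2 libraries were small RNAs of whole testes at 11 days after birth, each from 5 pooled pairs of testes and 1 library per genotype. Tdrkh-/- mice lacked exons 2 to 4 of Tdrkh on both alleles after excision with EIIa-Cre, a transgene then bred out, on a mixed C57Bl6/129 background, and the Tdrkh+/- controls carried 1 excised allele, so no library without the deletion was used here. The design text describes 2 independent knockout lines and does not say which gave the library. Levels are given per microRNA read, since microRNAs are made outside the piRNA pathway. A ratio above 1 means a higher level in Tdrkh-/-. A single library of each genotype allows no test and no replicate check. Intervals are 95% intervals of counting error alone. In pooled whole testes, fewer cells of a type and fewer small RNAs per cell cannot be told apart.

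The Tdrkh-/- library held 60973266 reads with 2481662 microRNA reads, and the Tdrkh+/- library 43172204 with 2351278. Exons 2 to 4 of Tdrkh (chromosome 3, 94422802 to 94424690, GRCm38) gave 0 reads on the sense strand in the Tdrkh-/- library and 17 in the other, counting sequences of that gene alone, and its other exons had 290 and 476. A count of 0 allows up to 3 reads.

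PIWI proteins bind piRNAs, which in the prenatal and young testis silence transposons such as LINE-1 and the intracisternal A particle (IAP). Primary piRNAs are cut from long precursors and tend to begin with U. In the ping-pong cycle a piRNA guides the cut of an RNA of the opposite strand, so the partners overlap by 10 nt at their 5′ ends, and the partner of a piRNA that begins with U carries A at position 10. TDRKH sits on mitochondria, carries Tudor and KH domains, and is known for its part in trimming piRNA precursors at their 3′ ends.

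Members were linked where they shared any 20 nt on either strand, which gave 443 groups, numbered by reads. The groups are short windows of repeats rather than whole elements, and 145 of them held 1 sequence. The most read sequences of groups 1, 2, 3 and 5 are stretches of the second reading frame of mouse LINE-1, and those of group 4 of the long terminal repeat of IAP; these names come from general knowledge, not from a repeat annotation. The leading sequence of group 4 is not printed, and 7 members of its strand had more reads in Tdrkh+/- than the 29-nt one shown. Sequences of these groups are given here 5′ to 3′ as the deposited files write them, with T for U, and capitals mark positions 1 and 10.
Group 1, 36 nt: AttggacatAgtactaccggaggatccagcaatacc
Group 1, opposite strand, 35 nt: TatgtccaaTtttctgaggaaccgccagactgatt
Group 2, 28 nt: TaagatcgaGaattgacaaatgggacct
Group 2, most read of 31 to 37 nt in Tdrkh+/-, 31 nt: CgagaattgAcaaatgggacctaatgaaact
Group 3, 28 nt: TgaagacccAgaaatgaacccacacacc
Group 5, 36 nt: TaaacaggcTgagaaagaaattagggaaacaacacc
Group 4, strand of its leading sequence, 29 nt: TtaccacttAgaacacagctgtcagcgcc
Group 4, opposite strand, most read in Tdrkh-/-, 32 nt: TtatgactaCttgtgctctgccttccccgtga
Group 4, opposite strand, most read in Tdrkh+/-, 27 nt: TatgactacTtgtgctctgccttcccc

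Repeat-derived reads were higher in Tdrkh-/- in both length classes, and most in the long one. At 24 to 30 nt there were 1117602 reads in Tdrkh-/- and 434195 in Tdrkh+/-, or 0.450 and 0.185 per microRNA read, a ratio of 2.44 (2.43 to 2.45). Sequences of the same lengths that matched 1 to 20 genes went the other way, with a ratio of 0.476 (0.476 to 0.477). At 31 to 37 nt there were 2236663 and 128690 repeat-derived reads, or 0.901 and 0.0547 per microRNA read, a ratio of 16.5 (16.4 to 16.6), against 4.89 (4.88 to 4.89) for 1 to 20 genes.

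By number of distinct sequences the libraries differed far less. Tdrkh-/- held 8265 members of 24 to 30 nt and Tdrkh+/- 9826, and at 31 to 37 nt the numbers were 7503 and 4794. The reads were piled on few sequences: a member of 31 to 37 nt had 298 reads on average in Tdrkh-/- and 26.8 in Tdrkh+/-, but a median of 8 and 3. The 10 most read members carried 39.0% of the long member reads of Tdrkh-/- and 31.2% of those of Tdrkh+/-. The 10 most read long sequences in 1 to 20 genes carried 7.05% and 2.90%. They came from far larger sets, of 847113 and 625046 distinct sequences, so these shares are not a like comparison. Members read once made up 5.84% of the long members in Tdrkh-/- and 28.3% in Tdrkh+/-. For long sequences in 1 to 20 genes it was 10.96% and 42.7%, so the share was lower in Tdrkh-/- there too. These had 16.5 and 4.34 reads on average.

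Read lengths moved up in Tdrkh-/-. Member reads were most frequent at 36 nt in Tdrkh-/- (13.6% of 24 to 37 nt) and at 28 nt in Tdrkh+/- (17.4%), with mean lengths of 31.9 and 29.1 nt. Reads of 31 to 37 nt made up 66.7% and 22.9% of member reads. Counted as distinct sequences, the most frequent lengths were 28 and 27 nt and the long share was 47.6% and 32.8%. For sequences in 1 to 20 genes the long share was 67.8% and 17.04% by reads, and 63.6% and 25.98% by distinct sequences. The long share thus differed more between the libraries in those sequences than in members. The ratio of members per microRNA read was lowest at 27 nt, with 1.54 (1.53 to 1.56), and highest at 36 nt, with 36.5 (35.8 to 37.2). It was above 1 at every single length from 24 to 37 nt, whereas sequences in 1 to 20 genes lay below 1 at each length from 25 to 29 nt.

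Among single sequences, 1105 of the 13370 members of 24 to 30 nt and 987 of the 9394 of 31 to 37 nt had at least 100 reads in both libraries together. Past 2-fold per microRNA read, 721 of the shorter ones were higher in Tdrkh-/- (65.2%), where 20.9% of all sequences of that length were, and 211 were lower (19.1%), where 66.7% of all were. The median log2 ratio was 2.31 for these members and -3.16 for all such sequences. Among the longer ones 901 were higher by that measure (91.3%), against 83.5% of all, and 19 lower (1.93%), against 9.6% of all. Their median log2 ratio was 4.99, beside 4.62 for all. Over both classes, 1622 of 2092 members were past 2-fold upward (77.5%, against 48.1% of all) and 230 past it downward (10.99%, against 41.9%). At this depth 107 long members (10.8%, beside 12.1% of all) and 39 short ones (3.53%, beside 1.66% of all) had 0 reads in Tdrkh+/-, which was set to 3 reads. In Tdrkh-/- 0 long members (beside 1.93% of all) and 6 short ones (0.543%, beside 10.7% of all) had 0 reads.

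The members lay mostly on the strand of the annotated transcripts. At 24 to 30 nt, 80.7% (Tdrkh-/-) and 78.4% (Tdrkh+/-) of reads came from sequences that matched more genes in sense than in antisense, and 19.1% and 21.3% from the reverse. At 31 to 37 nt the sense shares were 82.1% and 80.9%. By distinct sequences they were 60.4% and 58.9% at 24 to 30 nt and 63.7% and 63.4% at 31 to 37 nt, so abundant sequences were more often sense than rare ones. For sequences in 1 to 20 genes these shares were higher, at 87.8% and 90.3%, and 89.8% and 91.03%. By reads they were 75.5% and 88.7% at 24 to 30 nt, and 82.7% and 87.3% at 31 to 37 nt. Members were thus less often sense than these, except in Tdrkh-/- reads of 24 to 30 nt. Over 20 genes were matched on each strand by 17.99% and 24.5% of distinct members at 24 to 30 nt. At 31 to 37 nt it was 14.1% and 22.5%. The difference of the members' antisense shares between libraries was small and turned with the settings given in the closing section. Members matched 7643 genes in sense, of which 3785 were protein-coding, 2058 long noncoding and 1799 pseudogenes, and 6364 in antisense. The gene with the most members in sense was Gm47164, a gene annotated as still to be tested by experiment, on chromosome 10 (103207748 to 103213437, minus strand, GRCm38), with 7169, and in antisense the long noncoding Gm26905 on chromosome 8 (58171435 to 58298866, plus strand), with 6890.

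The number of genes matched ranged from 21 to 638, with a median of 29, and few reads came from the most repeated sequences. Sequences in 21 to 50 genes had 3310164 and 547629 reads, those in 51 to 100 genes 43768 and 14782, and those in over 100 and up to 200 genes 333 and 413. In over 200 and up to 500 genes there were 0 and 59 reads. The ratio fell over the first 3 of these classes, from 5.73 to 2.81 and 0.764. The transcripts themselves hold many such stretches, counted here with structural RNA matches included: of 27612 distinct 28-nt stretches in 21 to 50 genes in sense, 3.13% were read in Tdrkh-/- and 4.19% in Tdrkh+/-, while of 1311 in over 200 and up to 500 genes 0.305% were read in each. Whether sequences with many matches had been filtered before deposit is not given in the sources used here. Just inside the limit, sequences in 21 genes had 809542 and 37643 reads, and just outside it those in 20 genes had 137458 and 14064. Group 1 stood near this limit, since its 36-nt sequence matched 21 genes in sense and 7 in antisense.

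A few groups carried most of the reads. The 5 largest of each library held 61.8% of member reads in Tdrkh-/- and 72.5% in Tdrkh+/-, and the shares of single groups differed between the libraries. Group 1 held 21.5% of member reads in Tdrkh-/- and 6.65% in Tdrkh+/-, group 2 14.9% and 17.3%, and group 3 9.38% and 13.8%. Group 4, of the IAP long terminal repeat, held 4.54% and 31.01%. Of the 48 groups with at least 1000 reads of 24 to 30 nt, 33 lay at or above 2-fold in Tdrkh-/- and 10 at or below the reverse. Their ratios ran from 0.0340 to 39.7 around a median of 3.52. Of the 41 with at least 1000 reads of 31 to 37 nt, 37 lay at or above 2-fold and 0 at or below the reverse. Their ratios ran from 0.880 to 311 around a median of 15.6. Among all single sequences of 31 to 37 nt with at least 100 reads, 83.5% were past 2-fold upward and 9.6% downward. Long sequences of any kind were thus mostly higher. At 24 to 30 nt these shares were 20.9% and 66.7%. Groups pool many sequences, so the measures are not alike. Both strands were read in 130 groups.

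Group 1 of LINE-1 was the largest source of long reads in Tdrkh-/-. Its 36-nt sequence was read 190772 times in Tdrkh-/- but 1133 times in Tdrkh+/-, a ratio of 160 (150 to 169). On this strand the group had 619887 and 12449 reads of 31 to 37 nt, a ratio of 47.2 (46.3 to 48.03), but 43034 and 16169 of 24 to 30 nt, a ratio of 2.52 (2.48 to 2.57). The opposite strand had 42346 and 5063 long reads, a ratio of 7.92 (7.70 to 8.16), and its 35-nt sequence had 13330 and 620. Long reads of the leading strand had T at the 5′ end in 27.9% and 29.8% and A at position 10 in 71.5% and 69.6%. Not every member of this strand was higher: the most read one in Tdrkh+/-, of 31 nt, had 1152 and 3184 reads, a ratio of 0.343 (0.320 to 0.367). The opposite strand had a 5′ T in 81.5% and 85.7% of long reads and A at position 10 in 18.2% and 13.6%. Group 6, of which no sequence is printed here, was also high on its leading strand, with 198347 and 650 long reads, a ratio of 289 (268 to 313), a 5′ T in 2.51% and 6.46% and A at position 10 in 97.4% and 93.5%. It had 401 and 10 long reads on its other strand.

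Groups 2, 3 and 5 differed in how length and level went together. Group 2 was higher at both lengths, with 319346 and 67867 reads of 24 to 30 nt (ratio 4.46) and 179486 and 29396 of 31 to 37 nt (5.79). Its long reads began at different places in the libraries. The 31-nt sequence that begins with C, the most read long member of Tdrkh+/-, had 1669 and 8773 reads, a ratio of 0.180 (0.171 to 0.190), and a 5′ T was found in 73.5% of the long reads of this strand in Tdrkh-/- and in 27.6% in Tdrkh+/-. The 28-nt sequence of group 2, which starts further upstream and overlaps it, had 44721 and 14376 reads, a ratio of 2.95 (2.89 to 3.003). In group 3 the 28-nt sequence had 42500 and 20756 reads, a ratio of 1.94 (1.91 to 1.97), and the long reads had a ratio of 12.9. In group 5 the 36-nt sequence had 87869 and 2037 reads, a ratio of 40.9 (39.1 to 42.7), and the long reads stood at 269013 and 5970.

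Long reads of the IAP group lay on opposite strands in the 2 libraries. In group 4 the strand of the leading sequence, which is antisense to the IAP repeat by general knowledge, had 91200 shorter reads (24 to 30 nt) in Tdrkh+/- but 24488 in Tdrkh-/-, a ratio of 0.254 (0.251 to 0.258), and 20563 and 18353 long reads, a ratio of 0.846 (0.829 to 0.863). The opposite strand had 59343 and 33160 reads of 24 to 30 nt, a ratio of 0.529 (0.522 to 0.537), but its long reads numbered 3427 in Tdrkh+/- against 76133 in Tdrkh-/-, a ratio of 21.05 (20.3 to 21.8). The leading strand thus made up 85.7% (85.3 to 86.2) of the long reads of the group in Tdrkh+/- and 19.4% (19.2 to 19.7) in Tdrkh-/-. The printed sequences of the opposite strand were picked as the most read in each library, and they differ in their 5′ ends as well as in length. The 27-nt one had 12324 reads in Tdrkh+/- and 1207 in Tdrkh-/-, and the 32-nt one 409 and 24502. The printed 29-nt sequence of the leading strand had 2700 and 1251 in that order. A 26-nt form with the same 5′ end went the other way, with 1223 and 3916, a ratio of 3.03 (2.84 to 3.24). The 30-nt leading sequence, not printed, had 36404 and 7084, a ratio of 0.184 (0.180 to 0.189). In the other groups among the 12 largest, the leading strand held between 55.7% (group 9) and 99.8% (group 6) of the long reads in Tdrkh-/-, and between 42.9% (group 9) and 98.5% (group 5) in Tdrkh+/-.

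A 5′ U was less frequent among members than among other sequences. By reads it was found in 69.1% (69.0 to 69.2) of Tdrkh-/- and 77.5% (77.4 to 77.6) of Tdrkh+/- members of 24 to 30 nt, against 77.8% and 82.1% of sequences in 1 to 20 genes. At 31 to 37 nt it was 47.8% (47.7 to 47.8) and 56.0% (55.8 to 56.3), against 78.9% and 73.3%. By distinct sequences the member shares were 45.9% and 48.9% at 24 to 30 nt and 44.2% and 45.4% at 31 to 37 nt. The low share of long reads in Tdrkh-/- came with an A at the 5′ end in 42.6%, against 17.97% in Tdrkh+/-, where C stood at 23.3%. Without group 1 the shares of 5′ U at 31 to 37 nt were 54.7% and 57.6%. Without groups 1 and 6, a setting chosen after seeing the data, they were 62.2% and 57.9%, so the lower share of long Tdrkh-/- reads rested on these 2 groups.

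Members without a 5′ U carried A at position 10 far above its level elsewhere in the same reads. At 24 to 30 nt the share was 85.3% (85.1 to 85.4) in Tdrkh-/- and 76.1% (75.9 to 76.4) in Tdrkh+/-, while A stood at 34.7% and 33.1% over positions 2 to 9 and 11 to 20. At 31 to 37 nt it was 92.1% (92.1 to 92.2) and 84.4% (84.1 to 84.7), against 30.02% and 35.2%. Where a 5′ U was present, position 10 held A in 38.03% and 39.1% at 24 to 30 nt, where A stood at 40.4% and 35.4% over their other positions, and at 31 to 37 nt in 40.6% and 47.4%, against 38.1% and 37.2%. By distinct sequences A at position 10 was above the other positions with a 5′ U too, with 38.2% and 34.6% against 29.7% and 28.1% at 24 to 30 nt, and 39.01% and 37.3% against 31.7% and 30.2% at 31 to 37 nt. Without groups 1 and 6 the long members stood at 83.2% and 81.4%, a difference of 1.75 percentage points in place of 7.75. In the long sequences of 1 to 20 genes that lack a 5′ U, position 10 was A in 52.5% and 38.7%. By distinct sequences the member shares were 48.4% and 46.2% at 24 to 30 nt and 49.3% and 48.1% at 31 to 37 nt, with 33.8%, 31.7%, 35.9% and 33.3% at the other positions. The excess of A at position 10 was thus smaller over distinct sequences than over reads.

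Opposite-strand members overlapped by 10 nt more often than by any other length from 1 to 24 nt. The pair with the largest product of reads in Tdrkh-/-, both of group 1, is repeated here with the 10 shared bases in capitals.
Group 1, 36 nt: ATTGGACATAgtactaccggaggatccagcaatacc
Group 1, opposite strand, 35 nt: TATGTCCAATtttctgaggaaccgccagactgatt
Weighed by the product of reads, 59.8% of the pairs of 31 to 37 nt overlapped by 10 nt in Tdrkh-/- and 43.8% in Tdrkh+/-, where 4.17% would be the share if all overlaps were equally frequent. The next most frequent overlap was 9 nt, with 21.8% and 28.9%. In pairs of 24 to 30 nt the shares at 10 nt were 40.1% and 22.2%, and the next most frequent overlaps 5 nt with 9.35% and 12 nt with 16.1%. With each pair of sequences counted once the shares were 7.23% and 7.12% at 31 to 37 nt and 6.69% and 6.18% at 24 to 30 nt. Each was above the highest other overlap, of which the greatest was 5.16%.

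The weight of these pairs lay in 1 or 2 groups. Among long members group 1 held 97.9% (Tdrkh-/-) and 83.3% (Tdrkh+/-) of the summed products of the 10-nt pairs. At 24 to 30 nt it held 82.2% and 29.3%, and group 4 held 62.9% in Tdrkh+/-. Without group 1 the share at 10 nt was 31.8% and 31.1% at 31 to 37 nt. At 24 to 30 nt it was then 12.7% in Tdrkh-/-, below the 16.6% at 5 nt, and 19.3% in Tdrkh+/-, so the higher share in Tdrkh-/- rested on group 1. Within their own pairs of 31 to 37 nt, groups 10, 3, 12 and 8 also overlapped most often by 10 nt in Tdrkh-/-, with 67.3%, 49.6%, 41.2% and 39.2%. Groups 2, 4, 9 and 11 did not, with 10.6%, 12.02%, 35.5% and 15.99% at 10 nt. Groups 5 and 7 had pairs there but 0% at 10 nt, and group 6 had no pair of this length. In Tdrkh+/-, groups 2, 4, 9 and 11 did overlap most often by 10 nt, with 42.03%, 31.6%, 29.8% and 19.8%. Groups 10 and 3 did so there too, with 57.2% and 32.4%. Groups 8 and 12 did not, with 15.8% and 21.5% at 10 nt.

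A 10-nt partner among the members of the same library was found for 66.8% of the long reads in Tdrkh-/- and 75.9% in Tdrkh+/-, and for 75.7% and 85.2% of those of 24 to 30 nt. By distinct sequences the shares were 48.4% and 42.8% at 31 to 37 nt and 47.3% and 40.7% at 24 to 30 nt, which turns the order of the libraries. Partners were common at other overlaps as well, with a highest share of 42.2% and 37.005% of distinct long members at any other overlap. By reads the highest share at another overlap was 63.2% and 67.2% at 31 to 37 nt, and 72.5% and 78.7% at 24 to 30 nt. Long distinct members with a 10-nt partner had A at position 10 in 53.5% and 53.7%, and those without in 36.6% and 35.3%. By reads this held for long members only in Tdrkh+/-, with 68.0% against 49.9%. In Tdrkh-/- it was 66.3% with a partner and 70.0% without. At 24 to 30 nt the shares by reads were 52.6% and 47.2% with a partner, and 52.8% and 48.5% without. By distinct sequences they were 50.1% and 49.7%, against 38.1% and 34.2%.

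Most long members shared their 5′ ends with shorter sequences, which were counted whether or not they were members. Of the long member reads, 99.0% in Tdrkh-/- and 98.0% in Tdrkh+/- shared their first 24 nt with a shorter sequence (24 to 30 nt) of that library, against 70.5% and 73.1% for sequences in 1 to 20 genes. With starts moved by 1 to 10 nt, the member shares had medians of 88.7% and 87.8% and highest values of 95.3% and 94.4%, so most of the sharing by reads was also found at shifted starts. For sequences in 1 to 20 genes the shifted medians were lower, at 45.6% and 44.5%, so the gap between true and shifted starts was wider there than among members. By distinct sequences 77.9% (77.0 to 78.8) and 81.5% (80.3 to 82.5) of long members shared their end, and the highest shifted values were 66.7% and 69.2%. Of the long Tdrkh-/- reads, 98.3% began at a 5′ end of short Tdrkh+/- reads. Members had 6592 distinct 5′ ends of 24 nt, of which 2580 (39.1%) were found with members in both length classes.

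Reads from 1 such 5′ end were longer in Tdrkh-/- at most ends. At the 488 ends with at least 50 member reads in each library, mean lengths centred on 30.5 nt (Tdrkh-/-) and 29.1 nt (Tdrkh+/-), as medians over ends. The Tdrkh-/- mean was the longer one at 386 ends (79.1%). The median gain was 1.10 nt, and the quartiles were 0.0922 and 2.26 nt. For sequences in 1 to 20 genes it was longer at 91.5% of 15740 ends, with a median difference of 2.05 nt. Member reads beyond 37 nt or in 20 or fewer genes at the same end were not counted, which limits the length an end can reach.

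The most read shared end, that of group 1, shows the lengths base by base. The longest member form is printed here with the 24 nt common to all 14 forms in capitals.
Group 1, first end, 37 nt: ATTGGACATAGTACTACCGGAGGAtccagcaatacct
Group 1, end 1 nt further in, 37 nt: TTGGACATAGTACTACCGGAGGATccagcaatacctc
In Tdrkh+/- its reads were most frequent at the shortest forms, with 2629 at 24 nt, 2595 at 25 nt, 1914 at 26 nt and 1929 at 27 nt, and 1133 at 36 nt. In Tdrkh-/- there were 21191 reads at 24 nt and 1515 at 27 nt, then 46943 at 32 nt, 110631 at 35 nt, 190772 at 36 nt and 54099 at 37 nt. The ratio was 0.744 (0.695 to 0.796) at 27 nt, 7.64 (7.33 to 7.96) at 24 nt and 160 at 36 nt. The mean length over 24 to 37 nt was 34.4 nt in Tdrkh-/- over 472438 reads and 28.5 nt in Tdrkh+/- over 13900 reads. The end that lies 1 nt further in had 173310 and 7128 reads with mean lengths of 34.4 and 29.9 nt, and its most frequent form was 35 nt in Tdrkh-/- (85713 reads) and 24 nt in Tdrkh+/- (1429 reads). Both ends stop at the same base in their most frequent Tdrkh-/- forms.

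The base that follows the 3′ end in the matched transcripts was T more often than the bases further on, except in Tdrkh+/- reads of 24 to 30 nt. For long members it was T in 47.3% of Tdrkh-/- and 38.5% of Tdrkh+/- reads, against medians of 27.9% and 28.3% over the next 9 bases. By distinct sequences the shares were 35.6% and 33.5%, against 28.5% and 27.3%. At 24 to 30 nt they were 42.9% in Tdrkh-/- and 27.4% in Tdrkh+/- by reads, where the medians further on were 25.2% and 31.6%, and 34.2% and 29.8% by distinct sequences, against 28.8% and 27.7%. By reads single positions further on reached up to 38.8% in long Tdrkh-/- reads.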

How the data were processed

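Per the labels' protocols, RNA of 15 to 40 nt was gel-purified, made into libraries with an Illumina small RNA kit and read on a Genome Analyzer II. The submitters' processing notes name Bowtie and mm9; how reads were trimmed and filtered, and the versions, was not given in the sources used here. Each deposited file lists distinct sequences of 18 to 40 nt with a raw read count. Sequences were matched exactly, on both strands, to GENCODE M21 transcripts (GRCm38). Software was Python 3.11.15, Numba 0.67.0, NumPy 2.4.6 and SciPy 1.17.1. MicroRNA reads are those of 18 to 25 nt in sense to microRNA genes and to no structural RNA. Members and groups were chosen with earlier results of these data known. Intervals are Wilson's for shares and exact conditional binomial ones for ratios; they cover counting error only, since no molecular identifiers mark independent molecules. In fold counts a floor of 3 reads was used, so a count of 0 was taken as 3. Opposite-strand pairs were taken on the longest transcript of each gene, each pair and overlap once. The following base was averaged over a sequence's matches. Named sequences are the 3 most read per library and length class, the leads of the 5 largest groups, the 3 largest pairs per library and the 3 most read shared ends; sequences that also match chromosome 18 genes are not printed, and for groups 1 and 4 further members of each strand were chosen after their values were seen. The matcher gave 0 differences from a string search on 120 sequences, 40 of 40 planted pairs were found, and of 2092 simulated members all 100 changed 4-fold and 2 of 100 changed 1.5-fold passed 2-fold, and 0 unchanged ones did. The simulated counts had equal depth and counting error alone. They cannot show how often members would pass 2-fold through differences between libraries of 1 genotype. Alternatives were other gene limits, scalings, windows and read minimums, sequences read once left out, distinct sequences counted once and the largest group left out; leaving out groups 1 and 6 was added after seeing the data.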

Additional observations from a re-analysis of the deposited data

Results flagged for a closer look

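Reads that match more than 20 genes were also found outside the lengths compared above. At 38 to 40 nt there were 279218 in Tdrkh-/- and 11341 in Tdrkh+/-, from 2542 distinct sequences, which is 3.77% and 0.927% of the reads of those lengths and a ratio of 23.3 (22.9 to 23.8) per microRNA read. At 18 to 23 nt there were 160425 and 44308, from 6563 distinct sequences, which is 4.03% and 2.05% and a ratio of 3.43 (3.39 to 3.47). Each count is above the 3 reads that a count of 0 allows.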

How the results depend on the processing

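No paired analysis was possible because each genotype has 1 library. The ratio at 24 to 30 nt, 2.44, was 1.11 with each distinct sequence counted once, members and microRNAs alike, 2.45 without sequences read once, 2.77 with more than 10 genes, 1.43 with more than 50 genes, 1.82 per read listed, 2.42 without group 1 and 1.92 at 26 to 28 nt. The ratio at 31 to 37 nt, 16.5, was 2.06, 16.6, 17.8, 9.33, 12.3 and 13.4 under the same settings in that order, and 25.2 at 33 to 36 nt. Differences below are Tdrkh-/- minus Tdrkh+/- in percentage points. For 5′ U at 24 to 30 nt, -8.41 became -3.00 by distinct sequences and -14.9 with more than 50 genes. At 31 to 37 nt, -8.29 became -1.12 and 2.77, which reverses it, and -2.96 without group 1. For A at position 10 at 24 to 30 nt, 9.13 became 2.25 by distinct sequences, 8.78 without sequences read once, 19.4 with more than 50 genes and 10.2 without group 1, and at 31 to 37 nt 7.75 became 1.23, 7.32, 30.4 and 6.05. For the antisense share at 24 to 30 nt, -2.17 became -1.42 by distinct sequences and -2.65 without group 1, and reversed to 5.93 with more than 50 genes. At 31 to 37 nt, -0.97 reversed to 0.044 by distinct sequences and to 5.45 without group 1, and was -21.5 with more than 50 genes. For 10-nt pairs at 24 to 30 nt, 17.8 became 0.51 by distinct sequences, 17.75 without sequences read once, 38.2 with more than 50 genes and -6.54 without group 1, a reversal; at 31 to 37 nt, 15.98 became 0.10, 15.8, 11.8 and 0.73. For shared 5′ ends, 1.02 reversed to -3.54 by distinct sequences and was 0.87 with 20 nt, 5.56 with more than 50 genes and 0.95 without group 1. At 24 to 30 nt, 3162 or 352 members had at least 20 or 500 reads. Of these, 1943 or 258 were at least 2-fold higher and 638 or 54 lower. At 31 to 37 nt, 2555 or 352 were tested, with 2264 or 328 higher and 88 or 9 lower. The shares of all sequences at these minimums are not given here, so these counts cannot be set against them. Per read listed, 33 long members were lower. Without groups 1 and 6, chosen after seeing the data, the ratios were 2.34 and 11.8; at 24 to 30 nt the differences were -6.53 for 5′ U, 9.70 for A at position 10, -5.53 for antisense and -6.54 for 10-nt pairs, a reversal; at 31 to 37 nt they were 4.27 for 5′ U, a reversal, and 1.75, -5.20 and 0.73 for the rest in that order; for shared 5′ ends the difference was 0.77. Other causes were not tested. Beyond these, 12 values stayed within their intervals or within 1.5 times.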
